A study of Mus musculus with 20 samples.

Results

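Podocytes are the epithelial cells that cover the capillaries of the glomerulus, the filter of the kidney. Their foot processes interlock, and the gaps between them are bridged by the slit diaphragm, a sheet of adhesion proteins that holds back plasma protein. Adaptors tie this sheet to the actin skeleton, and a small set of transcription factors keeps the cell type in its mature state. The 8 genes described here belong to that system: Nphs1, Magi2, Cd2ap, Plce1, Podxl, Ptpro, Synpo and Wt1. They were taken by symbol from a table of 55822 genes, and each symbol matched 1 row. All 8 passed the filter on low counts that left 16266 genes for testing.

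Poly(A) RNA was sequenced from whole kidneys of male mice of the inbred strain C57BL/6J, aged 8 weeks. The groups compared here are 5 control mice given phosphate-buffered saline (PBS) and 5 mice given 1 mg of puberulic acid a day, a tropolone compound that some Penicillium moulds make. The 6 daily doses began on day 0 and ended on day 5, and kidneys were taken on day 7. The labels speak of oral dosing in one place and of gavage or intraperitoneal injection in another, so the route is not given here. The series also labels 5 mice for each of 2 lots of the supplement Choleste-Help, labelled normal and toxic and dosed at 1000 mg a day, which are not analysed here because the names of the 10 remaining columns do not say which lot they hold. Same-group samples are labelled as separate mice by number only.

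The 10 libraries held 18409940 to 24705953 estimated counts. The members were read from 53 to 7563 counts per library, with the lowest for Wt1 and the highest for Podxl. All podocyte markers among them were thus present in every library. Levels are given as CPM, the usual depth-scaled counts, on library sizes corrected by trimmed mean of M-values (TMM) factors, which assume that most genes are alike between libraries. These factors lay between 0.827 and 0.848 for controls and between 1.167 and 1.262 for treated mice. With that scaling the median tested gene had a log2 fold change of 0.05, and with plain total counts it had 0.56, so every fold change below moves by about the same amount when the scaling is changed.

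Of the 8 genes, Nphs1 was called lower, Cd2ap was called higher and 6 were not called after puberulic acid (edgeR's quasi-likelihood test, Benjamini-Hochberg adjusted p under 0.05 over all genes tested). In the same fit 65.3% of all tested genes were called, 34.2% higher and 31.1% lower. The median log2 fold change of the 8 genes was 0.10. Control and treated CPM ranges were apart for 1 of the 8 genes, Cd2ap, beside 50.1% of all tested genes. On total counts 3 of the 8 genes, Synpo, Plce1 and Cd2ap, were called higher and 0 lower, beside 56.4% and 15.5% of all tested genes. In a bulk sample, fewer podocytes and less RNA per podocyte cannot be told apart.

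**Figure D1:**
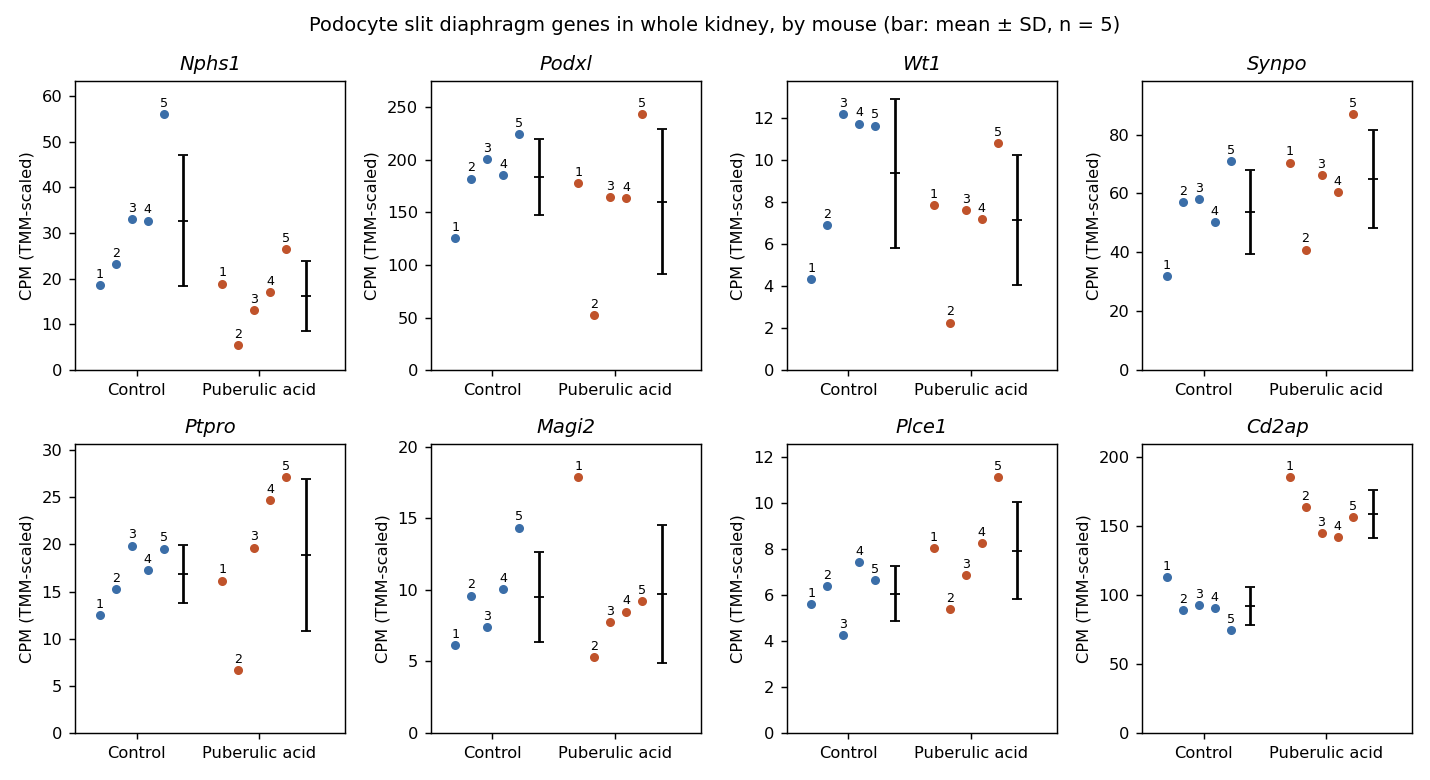
CPM (linear axis from 0) of the 8 genes in each mouse, numbered by replicate, for control and puberulic acid groups, with the mean ± SD of 5 mice beside them. Cd2ap is the only panel without overlap, from 74.4 to 113.2 CPM in controls and from 142.1 to 185.7 CPM with puberulic acid, and puberulic acid replicate 2 is the lowest of its group in 7 panels.

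Nphs1 (ENSMUSG00000006649) encodes nephrin, the immunoglobulin-superfamily adhesion protein whose extracellular parts meet across the slit. Control replicates 1 to 5 had 18.7, 23.3, 33.03, 32.7 and 56.0 CPM. Puberulic acid replicates 1 to 5 had 18.9, 5.41, 13.2, 17.2 and 26.4 CPM. Of the treated mice 3 lay below every control, and the ranges overlapped through treated replicates 1 and 5. Means were 32.7 ± 14.4 and 16.2 ± 7.71 CPM (SD, n = 5 per group). The log2 fold change was -1.01 ± 0.38 (SE, edgeR adjusted p = 0.0327), or 2.01-fold lower. The call was lost on total counts, where the log2 fold change was -0.49 (edgeR adjusted p = 0.267). It was also lost in 4 of the 10 fits that left out 1 mouse, namely without control replicate 3, 4 or 5 or without puberulic acid replicate 3, where edgeR's adjusted p ran from 0.0509 to 0.0947.

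Cd2ap (ENSMUSG00000061665) encodes an adaptor that links nephrin to actin and endocytosis, and many cell types besides podocytes express it. Control replicates 1 to 5 had 113.2, 89.3, 92.9, 90.6 and 74.4 CPM. With puberulic acid they had 185.7, 163.7, 144.9, 142.1 and 156.6 CPM. Every treated mouse was above every control. Means were 92.1 ± 13.9 and 158.6 ± 17.5 CPM (SD, n = 5 per group). The log2 fold change was 0.78 ± 0.12 (SE, edgeR adjusted p = 8.71e-05), or 1.72-fold higher. The call held in all 20 alternative fits, with log2 fold changes from 0.70 without puberulic acid replicate 1 to 1.29 on total counts.

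Magi2 (ENSMUSG00000040003), a membrane-associated guanylate kinase scaffold that binds nephrin, was at 6.16, 9.60, 7.38, 10.0 and 14.4 CPM in controls. Treated mice had 17.9, 5.28, 7.75, 8.48 and 9.19 CPM. One treated mouse, replicate 1, stood above all controls and 1, replicate 2, stood below them. The log2 fold change was 0.03 ± 0.31 (SE, 95% interval -0.65 to 0.72, edgeR adjusted p = 0.93), and without puberulic acid replicate 1 it was -0.33 (edgeR adjusted p = 0.256).

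Plce1 (ENSMUSG00000024998) encodes phospholipase C epsilon, a signalling enzyme needed for glomerular development and mutated in some inherited nephrotic syndromes. It had the lowest level of the 8 genes per length, at 5.59, 6.38, 4.26, 7.42 and 6.62 CPM in controls. Treated mice had 8.02, 5.37, 6.86, 8.23 and 11.1 CPM. Treated mice 1, 4 and 5 exceeded every control and the groups overlapped through replicates 2 and 3. Plce1 had a log2 fold change of 0.39 ± 0.21 (SE, 95% interval -0.07 to 0.85, edgeR adjusted p = 0.124), and on total counts it was 0.91 (edgeR adjusted p = 0.00286).

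Podxl (ENSMUSG00000025608) encodes podocalyxin, the negatively charged sialomucin of the podocyte's apical surface, which endothelium also makes. Controls had 125.7, 182.0, 200.3, 185.4 and 224.5 CPM. Treated mice had 177.7, 52.6, 164.3, 163.4 and 243.0 CPM. The lowest and the highest of the 10 values were both from treated mice. Podxl had a log2 fold change of -0.20 ± 0.31 (SE, 95% interval -0.87 to 0.47, edgeR adjusted p = 0.592), and its sign turned on total counts, to 0.32.

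Ptpro (ENSMUSG00000030223) encodes a receptor-type tyrosine phosphatase of the foot process membrane. Its controls were at 12.5, 15.2, 19.9, 17.3 and 19.6 CPM and its treated mice at 16.2, 6.65, 19.7, 24.7 and 27.2 CPM. Treated replicate 2 was below all controls while replicates 4 and 5 were above them. The log2 fold change was 0.16 ± 0.30 (SE, 95% interval -0.49 to 0.82, edgeR adjusted p = 0.65).

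Synpo (ENSMUSG00000043079) encodes synaptopodin, an actin-binding protein of foot processes. Controls were at 32.1, 57.1, 58.1, 50.3 and 71.1 CPM and treated mice at 70.5, 40.9, 66.2, 60.6 and 86.9 CPM. The groups overlapped, with control replicate 1 lowest and treated replicate 5 highest. For Synpo this gave a log2 fold change of 0.28 ± 0.22 (SE, 95% interval -0.20 to 0.75, edgeR adjusted p = 0.281), and on total counts it was 0.79 (edgeR adjusted p = 0.00784).

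Wt1 (ENSMUSG00000016458) encodes a zinc-finger transcription factor that podocytes need to stay differentiated, and that parietal cells of Bowman's capsule can also carry. Controls were at 4.34, 6.91, 12.2, 11.7 and 11.6 CPM and treated mice at 7.83, 2.26, 7.63, 7.17 and 10.8 CPM. Controls split into a pair of low values and 3 high ones, and 4 of the treated mice lay between these. For Wt1 this gave a log2 fold change of -0.38 ± 0.37 (SE, 95% interval -1.20 to 0.43, edgeR adjusted p = 0.385), and on total counts its sign turned, to 0.13.

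**Figure D2:**
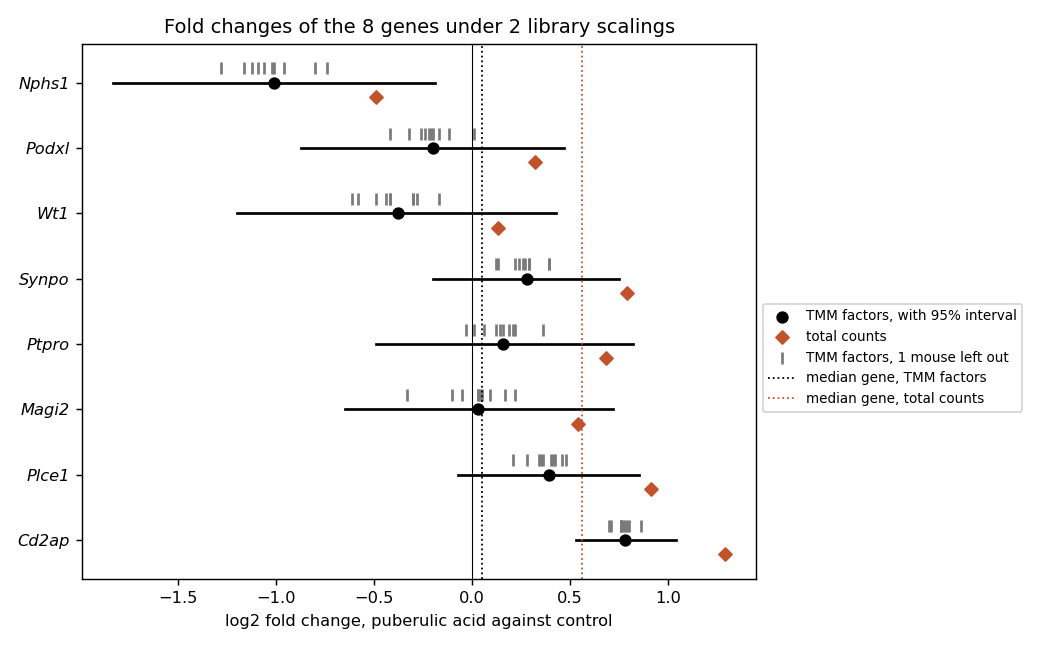
Log2 fold changes of the 8 genes, with black points and lines for the estimate and its 95% interval on TMM factors, grey ticks for fits without 1 mouse, orange diamonds for total counts, and dotted lines for the median tested gene. Nphs1 (-1.01) and Cd2ap (0.78) are the genes whose black line misses 0, and the diamonds lie to the right of the points by about the distance between the dotted lines.

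Levels can be set against each other between genes only per length. Divided by the summed exon length in GENCODE M21, an older annotation than the deposited identifiers, the control order in CPM per kilobase was Podxl at 34.1 ± 6.78, Cd2ap at 17.1 ± 2.57, Nphs1 at 6.80 ± 2.99, Synpo at 6.71 ± 1.78, Ptpro at 3.18 ± 0.580, Wt1 at 2.78 ± 1.05, Magi2 at 1.21 ± 0.401 and Plce1 at 0.606 ± 0.119 (SD, n = 5 for each). Ranges of neighbours overlapped between Nphs1 and Synpo, between Ptpro and Wt1, and between Wt1 and Magi2, and were apart for the other neighbours. With puberulic acid Nphs1 stood at 3.37 ± 1.602 CPM per kilobase (SD, n = 5) and moved from rank 3 to rank 5, behind Synpo and Ptpro. Podxl and Cd2ap kept ranks 1 and 2, at 29.8 ± 12.7 and 29.4 ± 3.24 CPM per kilobase (SD, n = 5).

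Several of the genes shared their lowest mice. Puberulic acid replicate 2 was the lowest treated mouse for all but Cd2ap, and control replicate 1 was the lowest control for 6 genes, all but Plce1 and Cd2ap. The genes did not share every extreme: Plce1 was lowest in control replicate 3, where Wt1 and Ptpro were highest, and Magi2 and Cd2ap were highest in treated replicate 1 while the other 6 were highest in treated replicate 5. After the group mean of log2(CPM + 1) was taken from each value, Pearson's r over the 10 mice ran from 0.42 to 0.94 for the 21 pairs without Cd2ap, with a median of 0.72. Podxl and Ptpro had the highest value and Ptpro and Magi2 the lowest. For the 7 pairs with Cd2ap, r ran from -0.56 to -0.17. These are descriptions over mice that share library scaling.

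**Figure D3:**
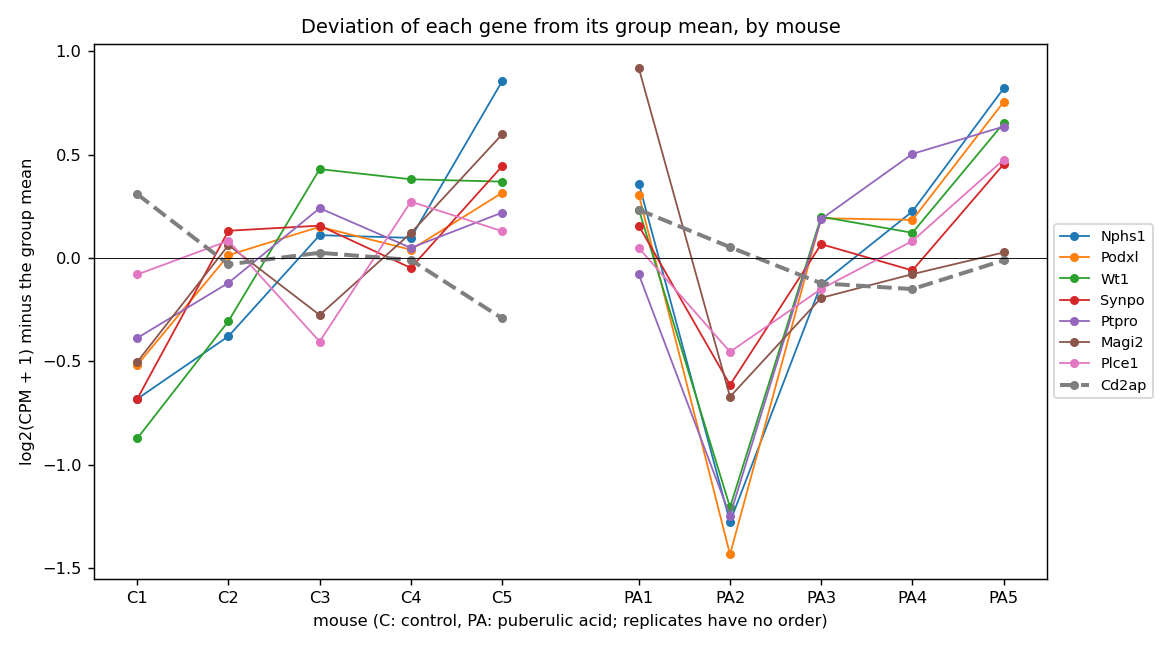
Deviation of log2(CPM + 1) from the mean of the mouse's own group for each of the 8 genes, with control mice at left and puberulic acid mice at right, and lines joining the values of 1 gene only to guide the eye. Control replicate 1 and puberulic acid replicate 2 dip for most genes, while Cd2ap (dashed) does not dip there.

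Promoters of 5 of the 8 genes were matched by symbol in RefSeq's GRCm38.p6 table, with 2 start sites for Magi2. The 250 bases before the start of Cd2ap and Ptpro are shown because Ptpro belongs to the pair with the highest r and Cd2ap had a negative r with each other member. Ptpro was also in the pair with the lowest r (0.42, with Magi2) of the 21 pairs without Cd2ap. Capitals mark the dinucleotide CG. Cd2ap lies at chr17:42876425-42876674 on the minus strand and Ptpro at chr6:137252049-137252298 on the plus strand.
Ptpro: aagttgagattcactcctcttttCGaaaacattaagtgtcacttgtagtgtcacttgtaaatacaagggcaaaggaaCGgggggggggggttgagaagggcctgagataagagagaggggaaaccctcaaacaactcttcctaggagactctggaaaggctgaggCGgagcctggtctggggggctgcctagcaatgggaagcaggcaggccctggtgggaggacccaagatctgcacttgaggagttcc
Cd2ap: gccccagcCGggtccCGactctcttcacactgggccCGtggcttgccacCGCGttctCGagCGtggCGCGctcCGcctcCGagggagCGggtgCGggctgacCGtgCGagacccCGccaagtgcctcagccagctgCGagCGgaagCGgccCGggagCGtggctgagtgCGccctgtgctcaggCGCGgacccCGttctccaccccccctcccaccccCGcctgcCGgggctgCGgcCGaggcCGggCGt
The Ptpro stretch held 3 CG dinucleotides and the Cd2ap stretch 31, beside a median of 6 over 32851 promoters. Their G and C shares were 53.6% and 76.4%, beside a median of 52.4%. Nphs1 had 5 CG dinucleotides, Plce1 had 6, and the start sites of Magi2 had 29 and 3. No CG count was made for Podxl, Wt1 and Synpo. A search on both strands for GCGTGGGNG, a form of the site that zinc fingers of the Wt1 and Egr type bind, found a match in 1 of these stretches, the first start site of Magi2, and in 1.65% of all promoters. A match is a description of letters only.

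The 5 genes most like Nphs1 by the same measure, among 11598 genes whose mean reached 5 CPM, were Shisa3 (r = 0.979), Cdh5 (r = 0.972), Arhgap31 (r = 0.969), Tie1 (r = 0.968) and Sparcl1 (r = 0.967), each over the same 10 mice. Cdh5 encodes the endothelial cadherin and Tie1 an endothelial receptor kinase. Of the 5, Arhgap31 was called, with a log2 fold change of 0.52 ± 0.18 (SE, edgeR adjusted p = 0.0203). Of 8 glomerular endothelial markers, 7 were lowest among treated mice in replicate 2, as Nphs1 was, and Plat was highest there, at 627.3 CPM. Ehd3 was at 23.6, 34.2, 44.0, 42.4 and 48.6 CPM in controls and at 23.9, 8.86, 15.0, 16.1 and 25.6 CPM with puberulic acid, lowest in the same mouse of each group as Nphs1. Its log2 fold change was -1.10 ± 0.27 (SE, edgeR adjusted p = 0.00352). Ehd3 was picked after its values were seen, and of the other 7 markers Kdr was called lower, Plat higher and 5 were not called.

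Ratios of counts within a mouse were also compared, which no library scaling can alter. Over the 28 pairs of members, control and treated ranges were apart for 6 pairs. For ratios to a member of the 15708 other tested genes with a count in every library, the share was 25.1%, so 6 of 28 is not above that background. Nphs1 was part of 5 of the 6 pairs, with its ratio to Podxl, Wt1, Synpo, Ptpro and Plce1 lower in treated mice. The remaining pair was Podxl against Synpo. Without control replicate 1 the count was 11 of 28 pairs, beside 33.2% of the ratios of those other genes. Leaving out a mouse can only narrow a range, so the count could not fall below 6.

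Counts of Nphs1 per count of Podxl were 0.149, 0.128, 0.165, 0.176 and 0.249 in controls and 0.107, 0.103, 0.0805, 0.105 and 0.109 with puberulic acid. All treated mice were below all controls, including treated replicate 2, whose levels of both genes were low. The log2 ratio was -2.57 ± 0.36 in controls and -3.32 ± 0.18 in treated mice (SD, n = 5 per group), and these differed by -0.75. Ratios to Podxl did not overlap for 17.5% of the same 15708 genes, and for 3.41% they were lower in treated mice.

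Counts of Nphs1 per count of Synpo were 0.407 to 0.787 in controls and 0.132 to 0.304 in treated mice, a log2 difference of -1.36. Per count of Ptpro they were 1.49 to 2.86 and 0.672 to 1.17, a log2 difference of -1.11. Per count of Plce1 they were 3.34 to 8.45 and 1.01 to 2.38, a log2 difference of -1.45. Per count of Wt1 they were 2.72 to 4.82 and 1.73 to 2.45, a log2 difference of -0.63. In each of these 4 ratios all treated mice were below all controls. Ratios of Nphs1 to Magi2 and to Cd2ap overlapped, the former through 2.42 in control replicate 2 and 2.87 in treated replicate 5. Podxl per Synpo was 3.16 to 3.92 in controls and at most 2.80 in treated mice. Ratios within a mouse show unequal change and do not say which partner changed.

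**Figure D4:**
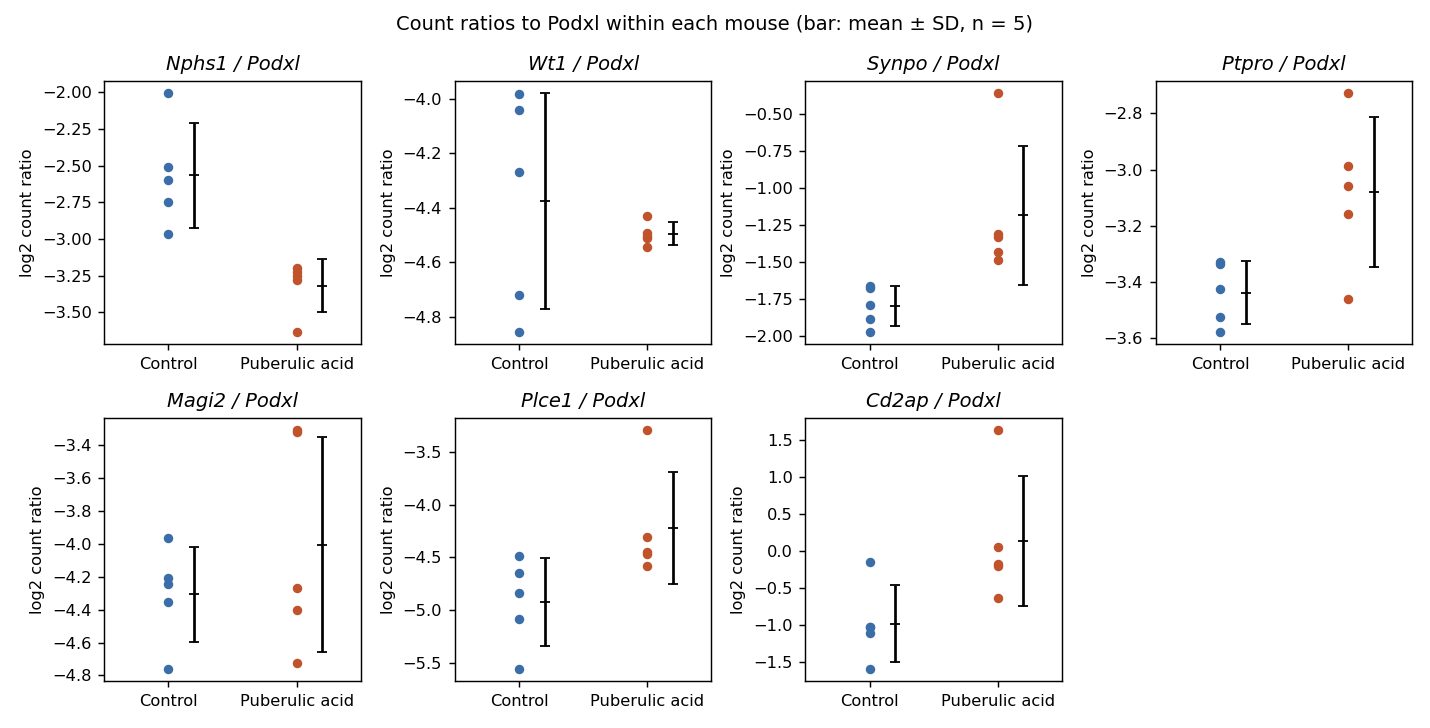
Log2 count ratios of the 7 other members to Podxl within each mouse (points) with the mean ± SD of 5 mice, on axes that differ between panels. Nphs1 lies lower (-3.32 against -2.57) and Synpo higher (-1.18 against -1.79) in every treated mouse than in every control, and the other panels overlap.

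Among 16 other slit diaphragm genes, 13 were tested, 7 were called higher and 0 lower, beside 34.2% and 31.1% of all tested genes, with a median log2 fold change of 0.50 beside 0.05 over all tested genes. On total counts 12 were called higher and 0 lower, with a median of 1.01 beside 0.56. The largest increases were in Cdh3, which encodes P-cadherin, with a log2 fold change of 1.97 ± 0.21 (SE), in Fat1, which encodes a giant cadherin, with 1.45 ± 0.16 (SE), and in Kirrel, which encodes the nephrin partner Neph1, with 1.19 ± 0.20 (SE). Tjp1, which encodes the tight-junction scaffold ZO-1, rose by 0.61 ± 0.11 (SE) on the log2 scale (edgeR adjusted p = 0.000393). These genes, like Cd2ap, are expressed in several kidney epithelia. Kirrel2, Kirrel3 and Trpc6 had at most 18 counts in any library and were not tested.

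In the list of 18 foot process actin genes, 8 were called higher and 6 lower, beside 34.2% and 31.1% of all tested genes, with a median of 0.12. On total counts 11 were called higher and 4 lower, with a median of 0.63. Anln rose from 1.47 ± 1.45 to 26.8 ± 8.48 CPM (SD, n = 5 per group), the control mean being 0.835 ± 0.374 CPM (SD, n = 4) without control replicate 1, and its product also acts in cell division. Myh9, a non-muscle myosin heavy chain, rose by 1.40 ± 0.11 (SE) and Inf2, a formin, by 1.19 ± 0.20 (SE) on the log2 scale. Rhpn1 had a log2 fold change of -1.32 ± 0.24 (SE), Arhgap24 one of -1.30 ± 0.16 (SE) and Slc9a3r1, a scaffold of brush borders, one of -1.13 ± 0.08 (SE). Actn4, the actin crosslinker, was at 337.9 ± 20.2 and 380.6 ± 18.4 CPM (SD, n = 5 per group), with an edgeR adjusted p of 0.063.

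Of 8 podocyte transcription factors 0 were called by edgeR, where 1 had an unadjusted p under 0.05, and 1 was called by DESeq2. Of all tested genes 65.3% were called by edgeR. Lmx1b was at 3.26 ± 1.62 and 2.34 ± 1.11 CPM (SD, n = 5 per group), and its log2 fold change was -0.47 ± 0.42 (SE, edgeR adjusted p = 0.344). On total counts 4 of the 8 were called higher, beside 56.4% of all tested genes.

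Of 20 other podocyte-enriched genes, 3 were called higher and 7 lower, and their median was -0.35, beside 34.2% and 31.1% of all tested genes and a median of 0.05. On total counts the median turned to 0.16, with 4 called higher and 3 lower. Bmp7, a growth factor, had a log2 fold change of -1.85 ± 0.23 (SE), Vegfa, the endothelial growth factor, one of -1.11 ± 0.11 (SE) and Enpep, a surface peptidase, one of -1.07 ± 0.18 (SE). All 3 are also made by tubule cells. Nes, Npnt and Efnb1 were higher, with log2 fold changes of 1.62 ± 0.19, 0.71 ± 0.11 and 0.39 ± 0.13 (SE).

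A list of 12 genes covered the glomerular basement membrane and cell-surface proteins of its attachment, among them Itga3, Itgb1 and Cd151. Of these 12, 4 were called higher and 3 lower, near the 34.2% and 31.1% of all tested genes, with a median of 0.15. On total counts 7 were called higher and 3 lower, with a median of 0.66. The 3 lower genes encode the mature type IV collagen chains. Col4a3 went from 199.9 ± 25.8 to 69.6 ± 8.83 CPM and Col4a4 from 184.7 ± 6.99 to 59.7 ± 11.7 CPM (SD, n = 5 per group), with log2 fold changes of -1.52 ± 0.12 and -1.63 ± 0.12 (SE). Col4a5 had one of -0.88 ± 0.10 (SE). Unlike most of the 8 genes, none of these 3 was lowest of its group in control replicate 1 or puberulic acid replicate 2. Among controls Col4a3 was highest in replicate 1, at 231.8 CPM. Which cells the lower collagen values came from was not tested. The largest increases were in Nid1, Itga3 and Itgb1, with log2 fold changes of 1.86 ± 0.19, 1.67 ± 0.12 and 1.27 ± 0.10 (SE).

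**Figure D5:**
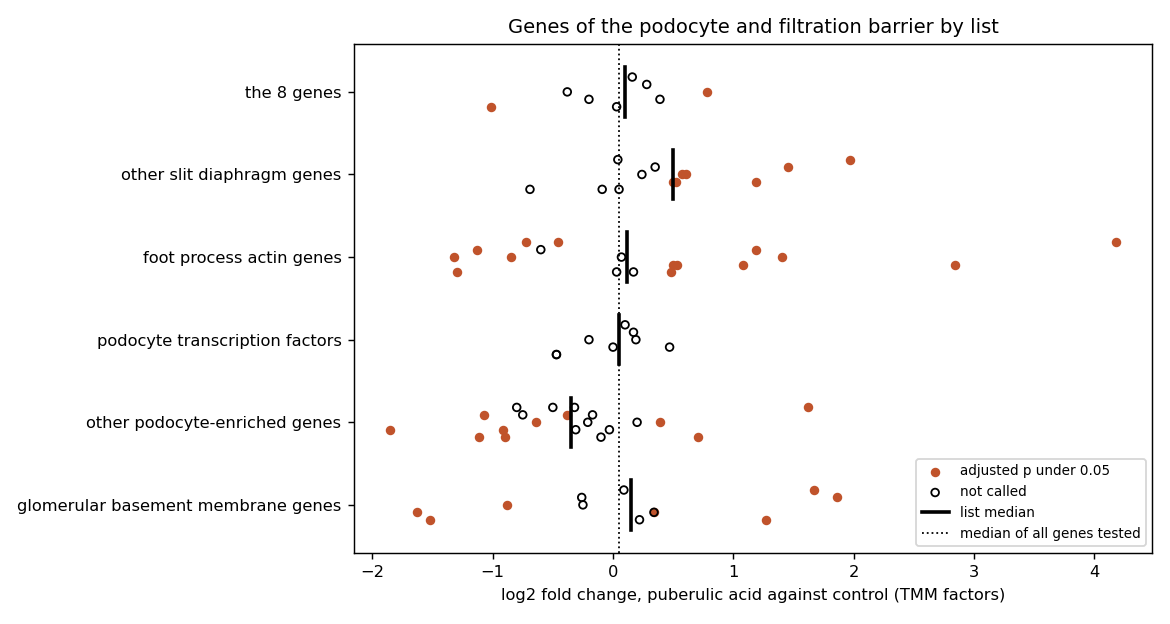
Log2 fold changes of single genes (points, filled where called by edgeR) in the 8 genes and the 5 wider lists, with the median of each list as a bar and that of all tested genes as a dotted line. The transcription factors lie within 0.47 of 0 on either side with none called, and the actin and basement membrane lists spread to both sides.

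Markers of several other cell types, though not of all, moved with the groups. The counts called below stand beside 34.2% of all tested genes called higher and 31.1% called lower. All 8 proximal tubule markers were called lower, and their summed level was 8526 to 13291 CPM in controls and 542 to 1314 CPM with puberulic acid, at most 644.3 CPM without puberulic acid replicate 1. All 5 injured tubule markers were called higher, from 744 to 1362 CPM in controls to 14213 to 24244 CPM. All 5 parietal epithelial markers were called higher, from 29.6 to 45.3 CPM to 345 to 527 CPM, of which Vcam1 and Cd44 also mark other injured or immune cells. Leukocyte markers were called higher for 4 of 6 tested, from 36.8 to 116.7 CPM to 120.4 to 459 CPM. Without control replicate 4 the leukocyte sum was at most 66.25 CPM in controls, and without puberulic acid replicate 1 it was at least 245.1 CPM in treated mice. Of 6 loop, distal and collecting duct markers 5 were called lower, with sums of 4184 to 6157 CPM in controls and 3268 to 6492 CPM in treated mice. Without puberulic acid replicate 1 the treated sums were at most 4167.1 CPM, just below the lowest control at 4183.9 CPM. Umod, with a log2 fold change of 0.06 (edgeR adjusted p = 0.782), made up most of this sum in every mouse. Of 5 mesangial markers 2 were called higher and 1 lower, with sums of 101.3 to 312.9 CPM in controls, at most 165.5 CPM without control replicate 5, and 87.9 to 238.6 CPM in treated mice, at least 164.9 CPM without puberulic acid replicate 2. Of 8 glomerular endothelial markers 1, Plat, was called higher and 2, Ehd3 and Kdr, lower. Sums of all 8 were 261.8 to 442.2 CPM in controls and 694.6 to 877 CPM with puberulic acid, and without Plat, left out after its values were seen, they were 220.8 to 358.9 CPM and 115 to 293 CPM, with a treated minimum of 177.5 CPM when puberulic acid replicate 2 was also left out. In none of these lists was a marker at 0 in all libraries. The part of these cells in the values of Nphs1, Cd2ap and the wider lists was not tested.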

How the data were processed

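Per the labels' protocols, kidney RNA with integrity numbers above 7.5 was poly(A)-selected and made into libraries with a directional kit. The authors deposited an estimated count for each gene and sample, not whole and with no stated normalization. The submitters' processing notes name fastp 0.22.0, FastQC 0.12.1, MultiQC 1.28, Salmon 1.10.3, DESeq2 and GRCm39, and the annotation release is not given in the sources used here. Columns were matched to the control and puberulic acid samples by name, and 10 sample columns whose names show no lot were not used. Of 55822 identifiers, 51344 matched a symbol in GENCODE M21, with 99.29% of the counts, and 3 list genes were matched through RefSeq synonyms.

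Counts were rounded, filtered with filterByExpr, scaled with TMM factors and tested with edgeR 4.0.16 (glmQLFit and glmQLFTest, robust off) with limma 3.58.1 in R 4.3.3, on 5 control and 5 puberulic acid samples. Standard errors were derived as |log2 fold change|/sqrt(F), and the 95% interval uses the t quantile of the moderated degrees of freedom. Genes with an adjusted p under 0.05 over all 16266 tested genes were called. The fit was also run on simulated counts built from control means, with equal numbers of genes raised and lowered. These held no difference in scaling between groups like that seen here, so they cannot bear on the choice of library scaling. No molecular identifiers are stated, so depth covers counting error only: 3 counts equal 0.158 to 0.195 CPM in controls and 0.0964 to 0.128 CPM with puberulic acid. Nothing in the labels says the same-group samples differ in more than number, so p-values measure the spread between them.

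The 8 genes, the lists and the tests were chosen with earlier results of these data known. Named genes are the 8 members, Tjp1, Actn4, Lmx1b, Col4a3 and Col4a4, up to 3 called genes per list and direction with the largest fold change at a mean of 1 CPM or more, and the 5 genes most like Nphs1. Some genes that the rule names are not reported here. Ehd3 and the other marker genes were named after their values were seen, as was the CG count of promoters and the marker sum without Plat. The mice left out of single marker sums and of the Anln mean were also picked after their values were seen. Alternatives were total counts, RLE and upper-quartile factors, no filter, a filter of 1 CPM in 5 samples, a robust fit, DESeq2 1.42.0, libraries without mitochondrial and the 10 most abundant genes, a replicate block, and fits without each mouse in turn.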

Additional observations from a re-analysis of the deposited data

Results flagged for a closer look

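Levels of the 8 genes and their 28 log2 ratios were searched within each group of 5 mice for an extreme value set off from the next one by more than 0.71 of the spread from lowest to highest. Of 72 groups of values 7 held such a value, and about 3.6 would come by chance among unrelated values, whereas ratios share genes. All 7 were ratios, and none was a level. In puberulic acid replicate 2 the log2 ratio was the lowest of its group for Podxl to Synpo (0.36), Podxl to Plce1 (3.29), Wt1 to Synpo (-4.18), Wt1 to Plce1 (-1.25) and Nphs1 to Plce1 (0.0114). In puberulic acid replicate 3 the log2 ratio of Nphs1 was the lowest of its group to Podxl (-3.64) and to Wt1 (0.79).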

How the results depend on the processing

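Cd2ap stayed called higher in all 20 alternative fits. Nphs1 kept a negative sign in all 20 and lost its call in 6. On total counts, 9179 genes were called higher and 2526 lower in place of 5564 and 5058, and the log2 fold changes were -0.49 for Nphs1, 0.32 for Podxl, 0.13 for Wt1, 0.79 for Synpo and 0.91 for Plce1. The same setting called 12 other slit diaphragm genes higher in place of 7 and 4 transcription factors higher in place of 0. It called 3 podocyte-enriched genes lower in place of 7 and 7 genes of the basement membrane list higher in place of 4. On total counts without mitochondrial and the 10 most abundant genes, chosen after seeing the data, 3131 genes were called lower, the log2 fold changes were -0.65 for Nphs1, 0.16 for Podxl, 0.63 for Synpo and 0.75 for Plce1, and the list counts were 11, 4, 3 and 7 in the same order. Upper-quartile factors called 2 transcription factors higher and DESeq2 1. RLE factors, both other filters, the robust fit and TMM factors without mitochondrial and the 10 most abundant genes changed the call of none of the 8 genes.

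Same-numbered mice did not deviate together (mean r of deviations -0.036, from -0.172 to 0.039), and 0 of 5 controls correlated best with the treated mouse of the same number. With the replicate block 10325 genes were called in place of 10622, Magi2 had a log2 fold change of -0.05 and 1 transcription factor was called higher.

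Over the fits without 1 mouse, genes called ran from 10104 to 11108. Log2 fold changes ran from -1.28 to -0.74 for Nphs1, from -0.42 to 0.01 for Podxl (0.01 without puberulic acid replicate 2), from -0.03 to 0.36 for Ptpro (-0.03 without puberulic acid replicate 5), and from -0.33 to 0.22 for Magi2, whose sign turned without control replicate 1 (-0.10) or 3 (-0.05) or puberulic acid replicate 1 (-0.33). Transcription factors called higher ran from 0 to 1 (1 without control replicate 5 or puberulic acid replicate 1 or 2). Ratios that did not overlap, a count that leaving out a mouse cannot lower, rose from 6 to at most 11 of 28, without control replicate 1. The cause of these changes was not tested. Depth was lowest for Wt1 and Plce1, at 53 to 336 and 67 to 346 counts per library.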

Other observations

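The ratio of Podxl to Wt1 was nearly the same in all treated mice. It was 22.7, 23.3, 21.5, 22.8 and 22.5 in puberulic acid replicates 1 to 5, a log2 value of 4.50 ± 0.04 (SD, n = 5), although the level of Podxl among these mice ran from 52.6 to 243.0 CPM. In controls the ratio was 29.0, 26.4, 16.5, 15.8 and 19.3, a log2 value of 4.38 ± 0.40 (SD, n = 5). Controls fell into a pair of high ratios, replicates 1 and 2, and 3 low ones. The difference in spread was picked out after the values were seen and was not tested.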
